A study of Mus musculus with 100 samples.

Results

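The contralateral knee joints of STR/ort and C57BL/6 mice were compared 1 week after the opposite knee had been injured, with 4 STR/ort and 5 C57BL/6 libraries, that is 9 of the 100 libraries of the study. They were chosen by their labels alone (strain, uninjured joint, 1 week), and all 17310 genes of the count table were tested. STR/ort is an inbred strain that develops osteoarthritis of the knee without injury, and C57BL/6 is the usual reference strain, and the comparison asks how the strains differ in a joint that was itself not loaded. In both strains the right knee of mice aged 10 weeks had received a single compressive load of 10 to 12 N, which ruptures the anterior cruciate ligament, and the other knee was collected. Per the study's methods the mice inhaled isoflurane for the loading and were given buprenorphine after it, and both strains are described alike. The labels of the 2 groups differ in strain, and the methods name the substrain C57BL/6J where the labels write C57BL/6. The labels number the libraries within each group but name no mouse or culture behind a number at 1 week, so p-values measure the spread between libraries. That spread was estimated from all 28 libraries of 1 week, injured joints and MRL/MpJ included.

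The knee is an organ of several tissues. Chondrocytes make the aggrecan and type II collagen of cartilage, fibroblasts of the capsule, ligaments, meniscus and synovium make type I and type III collagen and fibronectin, lining cells secrete lubricin into the joint fluid, and osteoblasts and osteocytes make and sense bone. The bone ends hold marrow, in which red cells, granulocytes and B cells are made, and muscle attaches around the joint. Each library came from a whole dissected knee that kept a little of the surrounding soft tissue, so that fewer cells of a type and less RNA per cell cannot be told apart in any result here.

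Total counts were between 7584659 and 12311812 in the 9 libraries, and levels are given as CPM, counts scaled to library size by TMM, with the libraries in the order of their replicate numbers. Each of the 9 libraries held at least 979 counts of Ddx3y, a gene of the Y chromosome, and the labels do not give the sex. Markers of every tissue named above were present in both strains. Summed over the list of each tissue, cartilage genes reached 2720.2 to 5956 CPM in C57BL/6 and 8301 to 10641 CPM in STR/ort, bone formation genes 12495 to 20103 CPM in C57BL/6 and 25665 to 37149.8 CPM in STR/ort, fast muscle genes 63849 to 111047 CPM in C57BL/6 and 41515 to 78417 CPM in STR/ort, marrow neutrophil genes 15928 to 20668 CPM in C57BL/6 and 15561 to 20582 CPM in STR/ort, and B cell genes 530.3 to 636 CPM in C57BL/6 and 280.2 to 487 CPM in STR/ort. On the first principal component of the contralateral joints at 1 week (40.2% of the variance, MRL/MpJ included) the 4 STR/ort libraries lay between 43.5 and 67.9, and the 5 C57BL/6 libraries between -29.2 and -10.7.

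**Figure D1:**
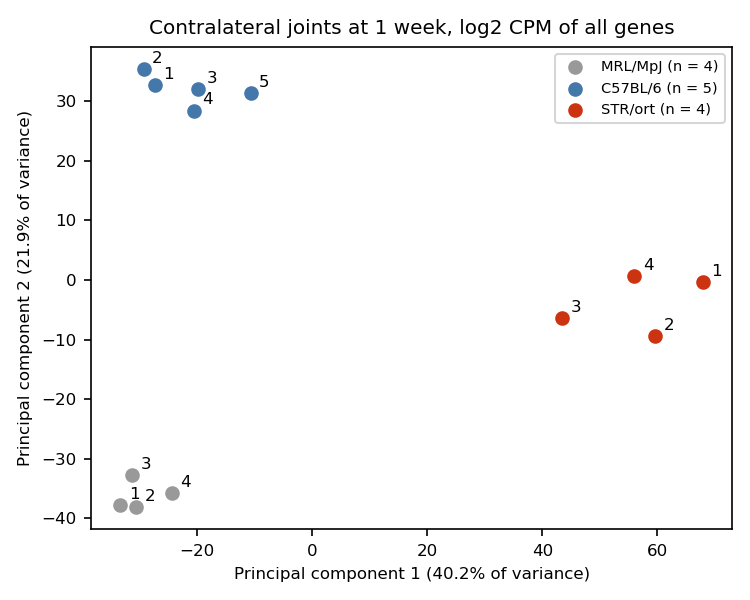
Principal components 1 and 2 of the log2 CPM of all genes in the contralateral joints at 1 week. Each point is a library with its replicate number; the 4 STR/ort libraries stand apart from the 5 C57BL/6 and 4 MRL/MpJ libraries along component 1, and component 2 (21.9% of the variance) separates C57BL/6 from MRL/MpJ.

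At 1 week the strains differed in 3851 genes, which is 22.2% of the genes tested, at an adjusted p below 0.05 and a fold change above 1.5 (edgeR quasi-likelihood test, Benjamini-Hochberg over all genes). Of these, 2272 (13.1% of all genes) were higher in STR/ort and 1579 (9.12%) were lower. Counts of called members in the gene lists below are to be read beside these shares. The median log2 fold change of all genes was 0.01, and 0 of 25 housekeeping genes were called, with a median of 0.16. A difference above 2-fold was seen for 1276 higher and 664 lower genes, above 4-fold for 297 and 155, and above 16-fold for 43 and 30. For 2978 of the called genes every STR/ort library lay outside the range of the C57BL/6 libraries, and this was so for 30.4% of all genes.

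The split between higher and lower genes depends on the scaling. Scaling by the 25 housekeeping genes shifted the median of all genes to -0.13 and gave 1760 higher and 2413 lower genes. A correction by RUVg, which estimates unwanted variation from the same housekeeping genes, gave 3123 calls with 1 factor and 2996 with 2, and only 2074 and 1934 of the 3851 genes were still called. RUVSeq with housekeeping genes is the normalization that the study's methods name, without the number of factors or the libraries of each fit, so the calls lost with RUVg were lost under a correction of the study's own kind. The first of these factors followed the strains, with 73.6% of its variance between the groups and no overlap between them, so the factor and the strain cannot be told apart here. The RUVg counts are given below beside the groups of genes whose main direction they move most. Beyond the 2 strains, the mean of 4 MRL/MpJ contralateral libraries lay nearer to C57BL/6 than to STR/ort for 3045 of the called genes (79.1%). The share over all genes was not computed, so 79.1% cannot be read as a trait of the called genes.

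Genes of fibrous connective tissue were higher in STR/ort. Of 35 genes of this list, 29 rose and 0 fell, with a median log2 fold change of 1.41, and 27 were called higher with 1 and with 2 RUVg factors (median 1.39 with 2). Fn1 (fibronectin, chr1:71585473-71653280, all positions in GRCm38.p6) measured 1183, 1127, 1383, 1234 and 1493 CPM in C57BL/6 and 8174, 13035, 3974 and 7918 CPM in STR/ort. The strains did not overlap, and STR/ort was 6.5-fold higher, a log2 fold change of 2.70 (SE 0.19, adjusted p = 1.74e-12). Col3a1, the type III collagen of loose and repairing tissue (chr1:45311538-45349706), gave 864, 1125, 1780.0, 1361 and 1162 CPM in C57BL/6 and 7349, 6669.6, 2723 and 6167 CPM in STR/ort. The lowest STR/ort library was above the highest of C57BL/6, and the log2 fold change was 2.20 (SE 0.21, adjusted p = 1.99e-09). Ctgf, a matrix protein induced by TGF-beta and by mechanical load (chr10:24595442-24598683), had 94.8, 87.6, 115, 105 and 114 CPM in C57BL/6 and 468, 666, 348 and 651 CPM in STR/ort, again with no overlap (log2 fold change 2.38, SE 0.13, adjusted p = 1.4e-14). Mamdc2, a proteoglycan of the matrix, rose by 2.29 (SE 0.16) on the log2 scale. The main collagen of bone and fibrous tissue, Col1a1, rose less, from 4161, 3937, 4634, 6379.8 and 7009 CPM to 12486, 9268, 7914 and 9393 CPM, at 0.92 (SE 0.21, adjusted p = 0.00063), and its call was lost with RUVg. In the summed level of the fibrous list, replicate 3 of STR/ort was the lowest of its strain, and the ranges were 7705 to 10840.2 CPM in C57BL/6 and 18869 to 37298 CPM in STR/ort.

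The synovial lining list was led by genes of lubrication. Of 14 members, 8 rose and 1 fell, with a median of 0.66. Prg4 encodes lubricin, the boundary lubricant that lining cells and superficial chondrocytes secrete (chr1:150449412-150466221). Its level was 827, 977, 1007, 857 and 1274 CPM in C57BL/6 and 8808, 18563, 6094 and 9045 CPM in STR/ort. Each STR/ort library was above each of C57BL/6, replicate 2 most of all, and the mean was 10.8-fold higher (log2 fold change 3.44, SE 0.20, adjusted p = 4.52e-14). Has1, a hyaluronan synthase (chr17:17833691-17855589), was at 1.15, 1.18, 1.16, 1.94 and 1.87 CPM in C57BL/6 and 18.7, 31.3, 7.56 and 27.9 CPM in STR/ort. Hyaluronan is the other large lubricating molecule of joint fluid, and the difference in Has1 was 3.83 (SE 0.39, adjusted p = 4.9e-09) on the log2 scale, without overlap.

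**Figure D2:**
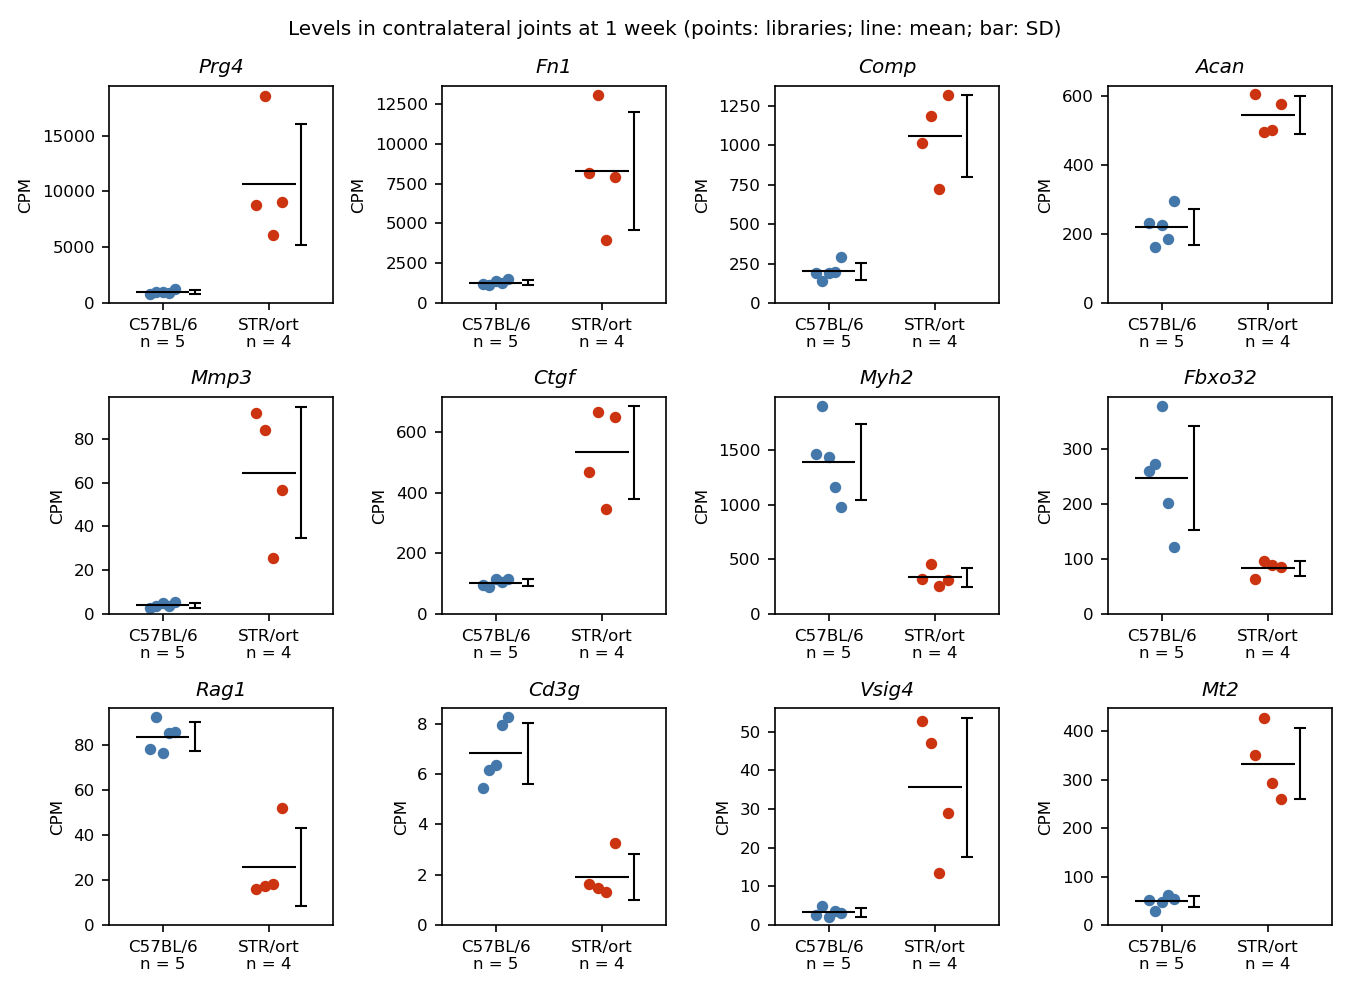
Levels in CPM (linear axes from 0) of 12 genes in the contralateral joints at 1 week; points are libraries, lines the mean and bars the SD. In every panel the 4 STR/ort points lie on one side of the 5 C57BL/6 points, above for Prg4, Fn1, Comp, Acan, Mmp3, Ctgf, Vsig4 and Mt2 and below for Myh2, Fbxo32, Rag1 and Cd3g.

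Cartilage genes were also higher in STR/ort. Of 26 measured members, 25 rose and 1 fell, at a median of 1.22. With RUVg, however, only 6 (1 factor) and 3 (2 factors) were higher, and the median became -0.06. Comp, a pentameric glycoprotein that binds collagen in cartilage and tendon (chr8:70373548-70382066), measured 193, 139, 188, 193 and 288 CPM in C57BL/6 and 1011, 1186, 719 and 1315 CPM in STR/ort, with no overlap and a log2 fold change of 2.42 (SE 0.18, adjusted p = 1.36e-11). Prelp, a small leucine-rich proteoglycan (chr1:133910304-133930102), measured 160.2, 135, 187, 159 and 228 CPM in C57BL/6 and 725, 687, 442 and 814 CPM in STR/ort, likewise without overlap, at 1.96 (SE 0.15, adjusted p = 7.77e-12). The chondrocyte transcription factors moved the same way. Sox5 was at 5.31, 5.51, 6.17, 4.7 and 7.37 CPM in C57BL/6 and 23, 35.2, 13.6 and 16.7 CPM in STR/ort (log2 fold change 1.93, SE 0.18, adjusted p = 1.26e-09). Sox9, the master regulator of the chondrocyte, was at 10.0, 9.59, 13.7, 11.4 and 17.5 CPM in C57BL/6 and 30.3, 37.7, 32.6 and 58.7 CPM in STR/ort (log2 fold change 1.68, SE 0.24, adjusted p = 1.59e-06), and its call was lost with 2 RUVg factors. No library of one strain entered the range of the other for either gene.

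The main structural genes of the cartilage matrix were added after their values had been seen. Acan (aggrecan, chr7:79053226-79115099) measured 232, 161, 227, 184 and 295 CPM in C57BL/6 and 606, 494, 501 and 576 CPM in STR/ort, a log2 fold change of 1.32 (SE 0.19, adjusted p = 1.14e-06), which fell out of the calls with 2 RUVg factors. Col2a1 (type II collagen, chr15:97975602-98004724) measured 1307, 647, 969, 1284 and 2112 CPM in C57BL/6 and 3604, 3631, 2998 and 3683 CPM in STR/ort. Its strains did not overlap, and the log2 fold change was 1.48 (SE 0.31, adjusted p = 0.000315). With 1 and with 2 RUVg factors Col2a1 changed sign, to -0.10 and -0.067, and was not called.

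Bone genes were higher in STR/ort by a similar amount. In the bone formation list 20 of 23 genes rose and 0 fell (median 1.04), but 6 and 3 rose with 1 and 2 RUVg factors. Ibsp, bone sialoprotein (chr5:104299287-104311472), measured 917, 801, 937, 736 and 1159 CPM in C57BL/6 and 2432, 1881, 2273 and 2974 CPM in STR/ort, with a log2 fold change of 1.41 (SE 0.15, adjusted p = 8.6e-09). Sost, the osteocyte's secreted Wnt inhibitor (chr11:101962458-101967015), measured 23.2, 15.1, 20.8, 27.6 and 33 CPM in C57BL/6 and 92.2, 36.7, 101 and 55.6 CPM in STR/ort, at 1.59 (SE 0.22, adjusted p = 1.09e-06). Mepe, another osteocyte protein, which regulates mineralization, rose by 1.52 (SE 0.20, adjusted p = 4.13e-07). The 3 genes did not overlap between strains, although the calls of Sost (1 and 2 factors) and Mepe (2 factors) were lost with RUVg. In the osteoclast list 5 of 16 genes rose and 1 fell, and 1 rose with either RUVg correction. Its largest rise was not an osteoclast product but Tnfrsf11b, osteoprotegerin, the decoy receptor that restrains osteoclast formation (chr15:54250619-54278484), at 12.1, 11.2, 11.8, 8.75 and 14 CPM in C57BL/6 and 41, 35.2, 36.3 and 45.3 CPM in STR/ort (log2 fold change 1.79, SE 0.14, adjusted p = 2.87e-11). The gene that fell was Car2, a carbonic anhydrase that osteoclasts share with red cells, at -0.81 (SE 0.20, adjusted p = 0.00178) with overlapping libraries, 1318, 1137, 1067, 1525 and 1222 CPM in C57BL/6 and 426, 669.6, 1101 and 611 CPM in STR/ort.

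Proteases that cut the matrix and their inhibitors rose together. Among matrix metalloproteinases 9 of 15 rose and 0 fell, and 5 rose with 1 and with 2 RUVg factors, under which 1 and 3 fell. Mmp3, stromelysin, which degrades proteoglycans and activates other proteases (chr9:7445822-7455975), was at 2.66, 3.68, 4.92, 3.56 and 5.6 CPM in C57BL/6 and 91.8, 84.1, 25.7 and 56.7 CPM in STR/ort. The difference was 15.7-fold, with no overlap (log2 fold change 3.97, SE 0.27, adjusted p = 1.31e-12). Mmp19, another member, was at 7.04, 7.48, 8.86, 8.26 and 9.34 CPM in C57BL/6 and 51.8, 33, 18.6 and 37.2 CPM in STR/ort, also without overlap (log2 fold change 2.09, SE 0.18, adjusted p = 2.76e-10). Of the tissue inhibitors of metalloproteinases, 3 of 4 rose, with Timp1 at 1.80 (SE 0.21, adjusted p = 4.53e-08) and Timp2 at 1.25 (SE 0.11, adjusted p = 5.51e-10). Timp2 measured 245, 245, 297, 295 and 281 CPM in C57BL/6 and 651, 809, 464 and 639 CPM in STR/ort, and Timp1 measured 16.2, 21, 21.1, 20.1 and 22.8 CPM in C57BL/6 and 85.8, 86.1, 53.7 and 53.8 CPM in STR/ort, so that both inhibitors separated the strains.

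In the ADAMTS family, which contains the aggrecanases and the procollagen peptidases, 12 of 18 genes rose and 0 fell. The rises were 12 and 10 with 1 and 2 RUVg factors. Adamts16 had the largest difference and a low level, 0.462, 0.525, 0.716, 0.891 and 0.393 CPM in C57BL/6 and 3.77, 11.1, 2.47 and 5.85 CPM in STR/ort (chr13:70727798-70841845), with a log2 fold change of 3.19 (SE 0.35, adjusted p = 1.49e-08). Adamts15 (chr9:30899155-30922452) measured 5.2, 4.46, 5.64, 4.37 and 6.19 CPM in C57BL/6 and 18.7, 23.5, 12.6 and 16.8 CPM in STR/ort, at 1.79 (SE 0.16, adjusted p = 4.63e-10). Adamts4, an aggrecanase (chr1:171250129-171262267), measured 1.62, 2.76, 4.03, 3.4 and 3.24 CPM in C57BL/6 and 11.1, 9.79, 6.58 and 8.22 CPM in STR/ort, at 1.53 (SE 0.26, adjusted p = 1.95e-05). The 3 proteases were higher in each STR/ort library than in any of C57BL/6.

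**Figure D3:**
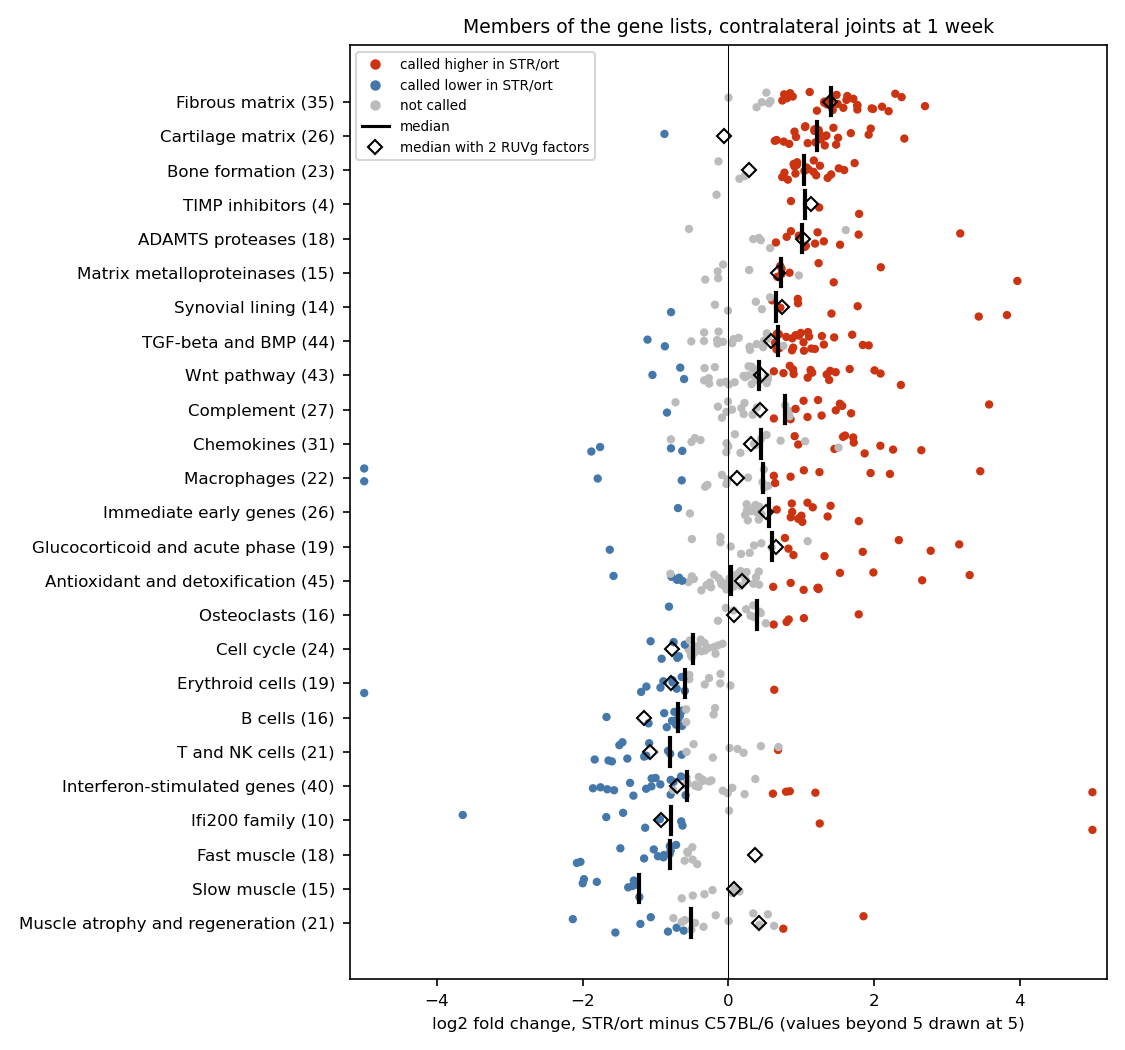
Log2 fold changes, STR/ort minus C57BL/6, of every measured member of 25 gene lists in the contralateral joints at 1 week (number of members in brackets). Red points were called higher, blue points lower and grey points were not called; the bar is the median and the open diamond the median with 2 RUVg factors, which leaves the fibrous, TIMP and ADAMTS lists near their medians and moves the cartilage, bone and muscle lists toward or past 0.

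Secreted regulators of Wnt signalling were among the genes that rose. Wnt ligands signal through Frizzled receptors to beta-catenin, and secreted antagonists and R-spondins tune that signal. Of 43 members 17 rose and 3 fell, or 1 fell without replicate 3 of STR/ort. Dkk1, an antagonist that blocks the LRP co-receptors (chr19:30545876-30549496), was at 8.66, 8.14, 7.6, 8.18 and 12.7 CPM in C57BL/6 and 42.6, 23.6, 45.2 and 31.9 CPM in STR/ort (log2 fold change 2.01, SE 0.20, adjusted p = 1.96e-09). Wif1, an antagonist that binds the ligands, was at 61.7, 68.4, 56, 55.1 and 85.8 CPM in C57BL/6 and 242, 169.8, 176 and 232 CPM in STR/ort (log2 fold change 1.67, SE 0.16, adjusted p = 1.97e-09). Neither gene overlapped between strains. Rspo2, an R-spondin and so an enhancer of the signal, was at 3.46, 2.63, 5.19, 3.64 and 7.57 CPM in C57BL/6 and 10.4, 41.3, 7.23 and 19.4 CPM in STR/ort, and here the ranges overlapped and replicate 2 of STR/ort stood highest. Its log2 fold change of 2.09 (SE 0.32, adjusted p = 3.77e-06) was 1.44 without that library.

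In the list of TGF-beta and BMP signalling 24 of 44 genes rose and 2 fell, with a median of 0.68. With 1 and 2 RUVg factors 16 and 18 rose. Ltbp3, which anchors latent TGF-beta in the matrix (chr19:5740900-5758536), measured 53.3, 48.2, 68.1, 77.9 and 72.5 CPM in C57BL/6 and 198, 299, 150.3 and 179 CPM in STR/ort, a log2 fold change of 1.70 (SE 0.15, adjusted p = 4.68e-10). Tgfbr3, betaglycan, the co-receptor that presents TGF-beta, measured 35, 33.9, 38.1, 32.9 and 32 CPM in C57BL/6 and 82.2, 89.3, 67.4 and 71.6 CPM in STR/ort, at 1.19 (SE 0.09, adjusted p = 1.08e-11). The libraries of the strains were separate for both genes. Smo, the signal transducer of the hedgehog pathway (chr6:29735497-29761366), was separate as well, at 26.7, 23, 26.5, 27.7 and 30.2 CPM in C57BL/6 and 75.8, 69.5, 64.9 and 68.7 CPM in STR/ort (log2 fold change 1.39, SE 0.09, adjusted p = 1.35e-12).

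Of the complement genes 12 of 27 rose and 1 fell, with 11 and 10 rises and 3 and 1 falls under RUVg. C4b, a component of the classical pathway (chr17:34728139-34743902), was at 38.6, 31.6, 37.2, 40.7 and 56.3 CPM in C57BL/6 and 198, 130.2, 77.4 and 117 CPM in STR/ort (log2 fold change 1.69, SE 0.16, adjusted p = 1.27e-09). Serping1, the C1 inhibitor that restrains that pathway (chr2:84765360-84775444), was at 132, 122, 140.4, 141 and 149.8 CPM in C57BL/6 and 434, 411, 311 and 446 CPM in STR/ort (log2 fold change 1.56, SE 0.09, adjusted p = 6.37e-14). A component and an inhibitor of the same cascade were thus both higher in every STR/ort library. C4b shares reads with a near-identical copy in the mouse genome, so its count is uncertain.

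Among chemokines 11 of 31 rose and 4 fell, beside 13.1% and 9.12% of all genes, and 6 rose with 2 RUVg factors. Ccl21a, a lymphatic chemokine from a cluster of near-identical copies, which makes its count uncertain, was at 1.96, 2.23, 2.95, 2.19 and 2.65 CPM in C57BL/6 and 10.1, 15.6, 6.33 and 9.34 CPM in STR/ort (log2 fold change 2.09, SE 0.18, adjusted p = 1.98e-10). Ccl8 was at 1.39, 0.919, 0.537, 0.648 and 0.885 CPM in C57BL/6 and 10.7, 1.57, 1.81 and 2.81 CPM in STR/ort, with replicate 1 of STR/ort far above the others. Without that library its log2 fold change fell from 2.26 (SE 0.44, adjusted p = 0.000112) to 1.29, and its call was lost with 2 RUVg factors. Ccl5, made by T and NK cells, fell, at -1.88 (SE 0.32, adjusted p = 1.73e-05). Of 18 inflammatory cytokines 5 rose and 1 fell, beside the same 13.1% and 9.12%, with 2 higher and 2 lower under either RUVg correction. The largest cytokine rise was that of Il11 at low levels, 0.231, 0.263, 0.894, 0.081 and 0.786 CPM in C57BL/6 and 1.26, 2.9, 1.32 and 1.91 CPM in STR/ort (log2 fold change 1.97, SE 0.47, adjusted p = 0.00108), and its call was lost with RUVg.

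Muscle genes were lower in STR/ort at 1 week with TMM scaling, and most of these calls were lost with RUVg. Of the fast muscle list 12 of 18 genes fell and 0 rose (median -0.81), and of the slow muscle list 8 of 15 fell and 0 rose (median -1.22). Fewer falls were called with RUVg, 2 and 0 fast genes and 1 and 1 slow genes with 1 and 2 factors. With 2 factors 3 fast genes and 0 slow genes rose, and the medians were 0.37 and 0.07. Myh2, the myosin of fast oxidative fibres (chr11:67171027-67197517), measured 1467, 1907, 1438, 1164 and 983 CPM in C57BL/6 and 318, 462, 258 and 313 CPM in STR/ort. Every STR/ort library was below every C57BL/6 library, and the log2 fold change was -2.03 (SE 0.28, adjusted p = 7.74e-07). Myh1, the myosin of another fast fibre type, was at 4271, 5548, 4640.3, 3199 and 2534 CPM in C57BL/6 and 701, 1085, 792 and 1208 CPM in STR/ort and fell by 2.08 (SE 0.26) on the log2 scale, and the fast light chain gene Myl1 was at -1.16 (SE 0.23, adjusted p = 0.000152). Mybpc1, a myosin-binding protein of slow fibres, was at 1608, 2174, 1781, 1071 and 946 CPM in C57BL/6 and 302, 434, 357 and 427 CPM in STR/ort (log2 fold change -1.98, SE 0.27, adjusted p = 6.68e-07). Actc1, cardiac actin, which skeletal muscle expresses in development, was at 186, 278, 144, 187 and 159 CPM in C57BL/6 and 38.2, 80.6, 14.1 and 58 CPM in STR/ort (log2 fold change -2.00, SE 0.30, adjusted p = 4.22e-06).

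Among genes of muscle atrophy and regeneration 7 of 21 fell and 2 rose (median -0.51, or 0.42 with 2 RUVg factors), against 2 falls and 4 or 5 rises with RUVg. Fbxo32, atrogin-1, the ubiquitin ligase that marks muscle wasting (chr15:58175879-58214892), measured 260.3, 273, 379.9, 203 and 123 CPM in C57BL/6 and 63.7, 96.1, 89.1 and 85.4 CPM in STR/ort, at -1.55 (SE 0.28, adjusted p = 5.41e-05). Myf6, a myogenic transcription factor, was at -1.21 (SE 0.22, adjusted p = 5.92e-05). The member that rose most, Cdkn1a, encodes the cell cycle inhibitor p21 and is not restricted to muscle (chr17:29090979-29100722). It was at 28.1, 28.8, 32.6, 28 and 37.3 CPM in C57BL/6 and 114, 105, 79.2 and 146 CPM in STR/ort, a log2 fold change of 1.86 (SE 0.13, adjusted p = 3.89e-12), with no overlap. Ppargc1a, the coactivator of mitochondrial biogenesis in muscle and brown fat, was at 30.3, 44.8, 39.5, 23.6 and 19.7 CPM in C57BL/6 and 6.16, 7.86, 8.96 and 8.56 CPM in STR/ort (log2 fold change -1.96, SE 0.27, adjusted p = 8.92e-07). The calls of Myl1, Mybpc1, Fbxo32, Myf6 and Ppargc1a were lost with 1 and with 2 RUVg factors, and with 2 factors Myl1 (0.14) and Myf6 (0.047) turned positive. Myh1 and Myh2 remained called with 1 factor and missed the threshold with 2, at -0.96 (adjusted p = 0.0512) and -1.01 (adjusted p = 0.0545) on the log2 scale. Actc1 kept its call in every alternative in which it was tested, at -1.25 with 2 factors (adjusted p = 0.0397).

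Summed fast muscle genes made up 63849 to 111047 CPM in C57BL/6 and 41515 to 78417 CPM in STR/ort, and slow muscle genes 2959 to 6470.4 CPM in C57BL/6 and 1304 to 2672 CPM in STR/ort. The fast sums overlapped only through replicate 2 of STR/ort, the highest of its strain. Without that library all 18 fast genes were called lower. With TMM scaling the muscle lists were thus lower in the strain in which the cartilage, bone and fibrous lists were higher, and the part of muscle RNA in those results was not tested. When the 54 listed muscle genes were left out before scaling, an alternative chosen after the data had been seen, 3834 genes were called, 3801 of them among the 3851.

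**Figure D4:**
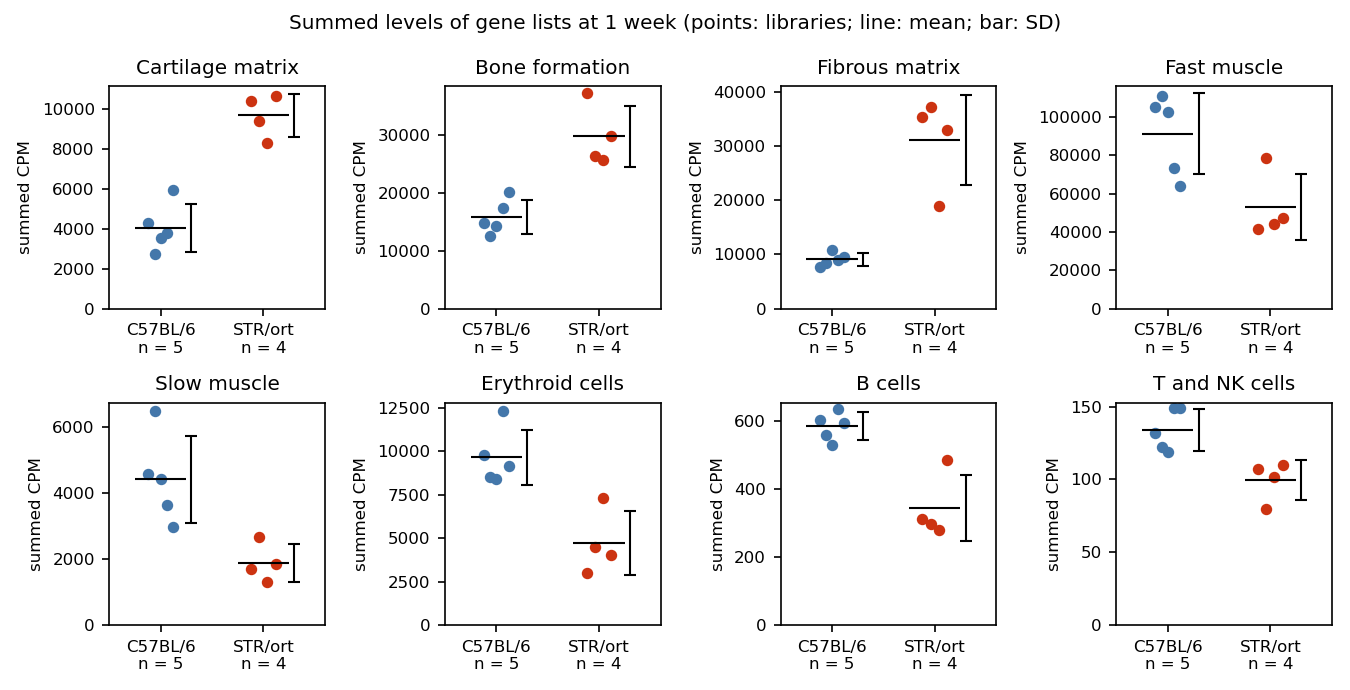
Summed CPM of all measured members of 8 gene lists in each contralateral library at 1 week (linear axes from 0); lines are means and bars the SD. Cartilage, bone and fibrous lists are higher in all 4 STR/ort libraries and slow muscle, erythroid, B and T or NK cell lists lower, while the fast muscle sums of the strains overlap.

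Erythroid and lymphoid genes were lower in STR/ort. In the erythroid list 11 of 19 genes fell and 1 rose, with 9 and 6 falls under RUVg and 6 falls when replicate 1 of STR/ort was left out. Slc4a1, the anion exchanger of the red cell membrane, was at 2497, 2051, 1945, 2912 and 2228 CPM in C57BL/6 and 733, 1191, 1942 and 939.6 CPM in STR/ort (log2 fold change -0.93, SE 0.23, adjusted p = 0.00129), with replicate 3 of STR/ort just below the lowest C57BL/6 library. Epb42, a protein of the red cell skeleton (chr2:121017891-121036877), measured 171, 155, 142, 184 and 153 CPM in C57BL/6 and 43.6, 70.2, 109 and 66.3 CPM in STR/ort, at -1.13 (SE 0.20, adjusted p = 3.41e-05). The summed list was separate between the strains, at 8405 to 12338 CPM in C57BL/6 and 2999 to 7338 CPM in STR/ort. Marrow neutrophil genes, in contrast, overlapped in sum, and 1 of 18 rose and 1 fell, or 0 and 5 with 2 RUVg factors. The neutrophil gene that fell was Chil3, a chitinase-like protein (chr3:106147554-106167564), at 676, 935, 754, 914 and 1002 CPM in C57BL/6 and 243, 261, 301 and 258 CPM in STR/ort (log2 fold change -1.67, SE 0.11, adjusted p = 7.97e-13).

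B cell genes fell in 12 of 16 cases, and 0 rose. Rag1, the recombinase of developing lymphocytes (chr2:101638252-101649532), measured 77.9, 92, 76.3, 85.4 and 85.7 CPM in C57BL/6 and 16.1, 17.3, 18.2 and 51.8 CPM in STR/ort. The strains were apart, with replicate 4 of STR/ort well above its group, and the log2 fold change was -1.67 (SE 0.26, adjusted p = 5.35e-06). T and NK cell genes fell in 12 of 21 and rose in 1. Genes of the T cell receptor complex, Cd3g (chr9:44969572-44980431) and Cd3d lay at -1.84 (SE 0.27, adjusted p = 2.53e-06) and -1.60 (SE 0.18, adjusted p = 3.44e-08). Cd3g measured 5.43, 6.17, 6.35, 7.94 and 8.26 CPM in C57BL/6 and 1.63, 1.45, 1.32 and 3.26 CPM in STR/ort, and did not overlap. Proliferation genes of the cell cycle list fell in 6 of 24 and rose in 0, and this count was 16 without replicate 3 of STR/ort and 18 or 21 with RUVg. Mki67, the Ki-67 antigen of dividing cells, was at 1819, 1958, 1812, 2006 and 1877 CPM in C57BL/6 and 708, 905, 1354 and 994 CPM in STR/ort (log2 fold change -0.92, SE 0.16, adjusted p = 3.49e-05).

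Of 22 macrophage genes, 8 rose and 4 fell, with 4 and 5 rises under RUVg. Vsig4, a complement receptor of resident tissue macrophages that lining macrophages of the joint express (chrX:96247201-96293438), was at 2.66, 4.99, 2.15, 3.56 and 3.05 CPM in C57BL/6 and 52.8, 47.1, 13.3 and 29 CPM in STR/ort. Lyve1, shared by a resident macrophage subset and lymphatic vessels (chr7:110850607-110862953), was at 16.1, 23.5, 15.9, 16.9 and 22.5 CPM in C57BL/6 and 100.4, 119.6, 54.1 and 75.5 CPM in STR/ort. Both were separate between strains, at 3.46 (SE 0.26, adjusted p = 1.05e-11) and 2.22 (SE 0.16, adjusted p = 5e-12) on the log2 scale. Cd5l, a secreted protein of macrophages in marrow, spleen and liver (chr3:87357881-87371074), went the other way, at 39.3, 50.9, 34.6, 52.2 and 32.5 CPM in C57BL/6 and 0.377, 0.604, 0.904 and 2.03 CPM in STR/ort (log2 fold change -5.36, SE 0.27, adjusted p = 3.36e-15). Marco, a scavenger receptor, had 0 counts in all 4 STR/ort libraries and 1.27, 5.51, 1.34, 1.38 and 0.393 CPM in C57BL/6. Against the level of 3 counts over the STR/ort group (0.0805 CPM), Marco was at least 22.1-fold lower (adjusted p = 0.00088). Without replicate 2 of C57BL/6, the highest of its strain, the bound was 13.8-fold. Its call was lost with RUVg, where the fitted log2 fold change, which depends on the prior count, was -4.22 with 1 factor.

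Interferon-stimulated genes leaned lower. Of 40, 16 fell and 5 rose (median -0.57), and 21 and 20 fell with RUVg. Oas3, an antiviral oligoadenylate synthetase, was at 37.2, 33.5, 26.5, 49.7 and 48.6 CPM in C57BL/6 and 14.8, 8.7, 7.73 and 11.8 CPM in STR/ort (log2 fold change -1.86, SE 0.22, adjusted p = 6.37e-08), with no overlap. Ifi44l stood against the direction of its list, with 0 counts in the 5 C57BL/6 libraries and 6.41, 2.42, 1.89 and 6.87 CPM in STR/ort. Against 3 counts over the C57BL/6 group (0.0600 CPM) this is at least 69.3-fold higher (adjusted p = 8.03e-08). In the Ifi200 family of DNA sensors, a tandem cluster on chromosome 1, 7 of 10 genes fell and 2 rose. The family shares near-identical stretches, so counts of single members are uncertain. Pyhin1 (chr1:173630859-173647928) fell, at 70.9, 76.4, 62.4, 79 and 80.4 CPM in C57BL/6 and 27.9, 17.5, 22.5 and 39.2 CPM in STR/ort (log2 fold change -1.45, SE 0.17, adjusted p = 1.02e-07), and Pydc3 fell at -1.68 (SE 0.15, adjusted p = 3.22e-10), while Ifi202b, described below, rose.

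Antigen presentation genes of the MHC fell in 7 of 29 and rose in 2, beside 9.12% and 13.1% of all genes. With 1 and 2 RUVg factors 17 and 14 fell. H2-T22, a nonclassical class I gene, was at 23.3, 23.6, 20.6, 27 and 30.0 CPM in C57BL/6 and 8.79, 6.41, 8.22 and 8.22 CPM in STR/ort (log2 fold change -1.63, SE 0.14, adjusted p = 8.1e-11). MHC genes have close copies, so single counts are uncertain. Of 21 Toll-like receptor genes 3 fell and 1 rose, beside 9.12% and 13.1% of all genes, with a list median of 0.14, and the rise became 4 rises without replicate 3 of STR/ort. Tlr1, which pairs with TLR2 on bacterial lipopeptides (chr5:64924680-64933600), measured 5.43, 7.62, 4.74, 6.32 and 5.7 CPM in C57BL/6 and 0.754, 0.604, 0.74 and 1.01 CPM in STR/ort, a log2 fold change of -2.89 (SE 0.21, adjusted p = 5.43e-12). Of the TRIM restriction factors 3 of 12 fell, beside 9.12% of all genes, and 5 with RUVg.

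In the list of glucocorticoid targets and acute phase genes 8 of 19 rose and 1 fell. Mt2, a metallothionein that binds zinc and copper (chr8:94172618-94173567), measured 51.2, 29.5, 47.8, 61.6 and 54.5 CPM in C57BL/6 and 351, 428, 294 and 261 CPM in STR/ort. The strains did not overlap, and the level was 6.86-fold higher in STR/ort (log2 fold change 2.78, SE 0.22, adjusted p = 3.66e-11). Mt1, its neighbour on the chromosome, measured 30.4, 20.1, 31.8, 49.5 and 42 CPM in C57BL/6 and 111, 171, 108 and 109 CPM in STR/ort, a log2 fold change of 1.85 (SE 0.20, adjusted p = 1.66e-08). Serpina3n, an acute phase protease inhibitor, was at 10.7, 10.4, 18.8, 12.7 and 19.3 CPM in C57BL/6 and 104, 66, 40.9 and 81.7 CPM in STR/ort (log2 fold change 2.34, SE 0.19, adjusted p = 3.42e-11). Fkbp5, a chaperone of the glucocorticoid receptor and one of its classical targets (chr17:28398753-28486149), was at 51, 61.1, 55.4, 47.9 and 50.7 CPM in C57BL/6 and 111, 144, 128 and 141 CPM in STR/ort (log2 fold change 1.32, SE 0.12, adjusted p = 3.52e-10), also with no overlap.

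The 250 bases before the annotated start of Mt2 (RefSeq, GRCm38.p6, chr8:94172368-94172617, plus strand) are shown because metallothionein genes are known for their metal response elements, and because Mt1 and Mt2 moved together here. Capitals mark each match of TGCACNC or TGCGCNC, the core of that element, on either strand.
Mt2: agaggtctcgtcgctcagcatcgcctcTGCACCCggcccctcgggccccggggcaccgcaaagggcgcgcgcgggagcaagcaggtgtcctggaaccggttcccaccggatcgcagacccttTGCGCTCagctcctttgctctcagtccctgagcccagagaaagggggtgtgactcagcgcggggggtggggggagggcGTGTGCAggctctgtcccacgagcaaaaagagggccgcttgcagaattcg
The window holds 3 matches, which do not overlap. Of 32851 mouse windows of this length 21.4% hold at least 1 and 1.26% hold 3 or more. A match of letters is a description of the sequence and was not measured as a bound site.

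Of 45 antioxidant and detoxification genes 10 were higher and 5 lower, beside 13.1% and 9.12% of all genes, with a list median of 0.03, and the lower count was 3 without replicate 1 and 8 without replicate 3 of STR/ort. Sod3, the superoxide dismutase of the extracellular matrix (chr5:52363804-52369738), was at 33.8, 47.7, 56.6, 52.7 and 60.8 CPM in C57BL/6 and 329, 434, 179 and 323 CPM in STR/ort (log2 fold change 2.66, SE 0.17, adjusted p = 5.43e-13). Duox1, an oxidase that makes hydrogen peroxide, was at 0.346, 1.05, 0.447, 0.405 and 0.688 CPM in C57BL/6 and 7.04, 7.37, 2.63 and 6.08 CPM in STR/ort (log2 fold change 3.31, SE 0.35, adjusted p = 1e-08). Gsr, glutathione reductase (chr8:33653238-33698162), fell in STR/ort, from 242, 287, 267, 283 and 299.5 CPM to 91, 81.8, 112 and 79.6 CPM. Nnt, a mitochondrial transhydrogenase that is partly deleted in C57BL/6J and was added after its values had been seen, was at 46.8, 48.7, 46.2, 42.3 and 39 CPM in C57BL/6 and 87.6, 85.7, 88.2 and 98.8 CPM in STR/ort (log2 fold change 1.03, SE 0.08, adjusted p = 5.22e-12). The level was lower in every C57BL/6 library, and C57BL/6J is the substrain that the study's methods name.

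Immediate early genes, which respond to stimuli within the hour, rose in 13 of 26 cases and fell in 1, with 5 and 7 rises under RUVg. Klf4 was at 69.1, 64.2, 62.3, 69.8 and 78 CPM in C57BL/6 and 174, 194, 130.2 and 221 CPM in STR/ort (log2 fold change 1.40, SE 0.13, adjusted p = 8.34e-10), and Egr2 was at 2.66, 2.23, 2.15, 2.19 and 2.16 CPM in C57BL/6 and 4.9, 5.8, 5.92 and 6.42 CPM in STR/ort (log2 fold change 1.36, SE 0.21, adjusted p = 4.46e-06). Cyr61, a matrix protein of the same family as Ctgf, was at 18.9, 22.5, 29.9, 24.9 and 23.5 CPM in C57BL/6 and 43.5, 49.1, 42.3 and 77.7 CPM in STR/ort (log2 fold change 1.16, SE 0.17, adjusted p = 1.52e-06). These 3 genes were separate between the strains. Fosb, at 1.79 (SE 0.49, adjusted p = 0.00386), rested on replicate 4 of STR/ort, at 9.68 CPM against 2.06 to 3.02 CPM in the others. Without it the log2 fold change was 0.97 (adjusted p = 0.112), and the call was also lost with RUVg.

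Clock genes fell in 6 of 19 and rose in 3, beside 9.12% and 13.1% of all genes, or 1 fell with RUVg. Npas2, an activator of the clock, was at 2.77, 3.28, 4.38, 5.67 and 5.01 CPM in C57BL/6 and 15.8, 19.9, 11.3 and 17.3 CPM in STR/ort (log2 fold change 1.91, SE 0.19, adjusted p = 4.18e-09), and Dbp, an output gene that peaks in another phase, was at 8.2, 7.09, 9.48, 11.2 and 6.49 CPM in C57BL/6 and 1.76, 1.81, 4.11 and 3.49 CPM in STR/ort (log2 fold change -1.54, SE 0.25, adjusted p = 1.03e-05). The 2 genes moved in opposite directions, and the hour of collection is not in the labels. Heat shock chaperones rose in 3 and fell in 3 of 17, beside 13.1% and 9.12% of all genes, with a list median of 0.04. With 1 RUVg factor 5 rose and 0 fell. The rises were 5 without replicate 2 or 5 of C57BL/6 or replicate 3 of STR/ort. Hspa5, the chaperone of the endoplasmic reticulum in secreting cells (chr2:34772090-34776529), was at 569, 598, 582, 579 and 614 CPM in C57BL/6 and 1322, 1107, 981 and 1197 CPM in STR/ort (log2 fold change 0.99, SE 0.08, adjusted p = 1.24e-10).

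Fat genes rose in 4 and fell in 6 of 21 cases, beside 13.1% and 9.12% of all genes. There was 1 fall under RUVg, and there were 7 rises without replicate 3 of STR/ort. Lep, leptin, the hormone of white fat (chr6:29060221-29073876), was at 4.62, 3.28, 5.72, 2.27 and 6.98 CPM in C57BL/6 and 19, 32.4, 14.2 and 9.57 CPM in STR/ort, with no overlap and a log2 fold change of 2.04 (SE 0.29, adjusted p = 1.53e-06). Endothelial genes rose in 2 and fell in 1 of 17, and Schwann cell and nerve genes rose in 4 and fell in 2 of 16. Mast cell genes rose in 2 and fell in 1 of 11, or 1 and 3 with RUVg. Such counts stand beside 13.1% higher and 9.12% lower of all genes, and are not read as results about these lists. Without replicate 3 of STR/ort 4 Schwann cell and nerve genes fell, and with single libraries left out 1 to 3 mast cell genes rose and 1 to 2 fell. Skin keratinocyte genes rose in 3 and fell in 1 of the 5 measured of 14 listed. Of 6 genes of the sex chromosomes 1 rose and 1 fell.

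Several of the genes with the smallest adjusted p were near absence in one strain. Reads of both strains were aligned to the same reference, mm10. The part of sequence differences between the strains in these counts, and in those of the genes that fell, was not tested. Ifi202b, a member of the Ifi200 family (chr1:173962569-173982844), measured 0, 0, 0, 0.162 and 0.492 CPM in C57BL/6 and 66.7, 60.4, 45 and 51 CPM in STR/ort. In 3 C57BL/6 libraries no read was found, and the fitted log2 fold change of 8.53 (SE 0.27, adjusted p = 5.07e-20) was 9.81 without replicate 5 of C57BL/6. Gdpd3, a lysophospholipase D (chr7:126766414-126775645), measured 3.81, 3.55, 4.03, 3.97 and 3.74 CPM in C57BL/6 and 60.0, 47.4, 60.2 and 59.1 CPM in STR/ort, at 3.90 (SE 0.13, adjusted p = 2.07e-19). Ceacam2, a cell adhesion molecule (chr7:25516042-25540004), measured 0.346, 0.263, 0.179, 0.162 and 0.492 CPM in C57BL/6 and 17.7, 15.2, 23.6 and 16.2 CPM in STR/ort, at 5.99 (SE 0.24, adjusted p = 1.4e-17), and its close paralogue makes the count uncertain. Rnase2a, an eosinophil ribonuclease of a family of near-identical copies (chr14:51255261-51256112), was at 0.115, 0.919, 0.179, 0.405 and 0.197 CPM in C57BL/6 and 24.2, 29.4, 35.1 and 33.8 CPM in STR/ort. C130026I21Rik (chr1:85241286-85282883) was at 3.60 (SE 0.15, adjusted p = 1.4e-17), Zfp949, a zinc finger gene, at 1.80 (SE 0.08, adjusted p = 1.7e-16), Gm5779 at 5.28 (SE 0.27, adjusted p = 3.68e-15), and Chit1, chitotriosidase of activated macrophages, at 3.38 (SE 0.18, adjusted p = 6.58e-15).

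For 2 of these genes C57BL/6 held only a few counts. Tm4sf20, a tetraspan membrane protein (chr1:82756647-82768461), had 2 counts in the 5 C57BL/6 libraries against 465 in the 4 STR/ort libraries, a ratio of 312 with a 95% counting interval from 85.8 to 2581. BC049730, for which no position was matched, had 3 counts against 386, a ratio of 172 (interval 58.6 to 840.1). These intervals cover counting error only, and every STR/ort library was above 9 CPM for both genes.

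Among the genes that fell, Hba-a2, an alpha-globin gene (chr11:32296492-32297310), was the most extreme, at 1476, 1563, 1754, 3285 and 1897 CPM in C57BL/6 and 1.13, 2.66, 4.03 and 3.15 CPM in STR/ort (log2 fold change -9.42, SE 0.31, adjusted p = 6.6e-20). Reads from the near-identical alpha-globin copies cannot be divided with certainty, so this value is not a measure of alpha-globin as a whole. 2610507I01Rik (chr11:59197793-59202431) measured 57, 50.3, 53.1, 55.9 and 56.3 CPM in C57BL/6 and 4.52, 4.96, 5.92 and 4.62 CPM in STR/ort, at -3.41 (SE 0.13, adjusted p = 5.63e-18). Gcnt1, an enzyme that branches O-glycans (chr19:17326141-17372844), measured 74.4, 89.6, 83.8, 86.3 and 87.6 CPM in C57BL/6 and 27, 22.4, 19.7 and 24.4 CPM in STR/ort, at -1.84 (SE 0.09, adjusted p = 3.68e-15). Apobec3, a cytidine deaminase that restricts retroviruses (chr15:79892058-79918218), measured 129, 139, 142, 172 and 164 CPM in C57BL/6 and 35.9, 26.2, 36.1 and 36.3 CPM in STR/ort, at -2.13 (SE 0.12, adjusted p = 2.23e-14). D730005E14Rik, whose span overlaps Apobec3, fell with it at -3.81 (SE 0.21, adjusted p = 1.4e-14), and reads of the 2 genes cannot be told apart without strand. Ifitm6, an interferon-induced membrane protein (chr7:141015812-141016892), measured 108, 136, 135, 127 and 163 CPM in C57BL/6 and 20.7, 14.7, 30.0 and 19.4 CPM in STR/ort, at -2.62 (SE 0.16, adjusted p = 1.29e-13). Ccdc92b was at -4.57 (SE 0.24, adjusted p = 6.2e-15), Gsr at -1.58 (SE 0.09, adjusted p = 6.44e-14), and Ubb, a polyubiquitin gene with near-identical copies, at -2.37 (SE 0.14, adjusted p = 1.52e-13).

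The same strain difference was measured in separate libraries at other times. At 0-day, before any injury, 2391 genes differed (13.8% of all genes), in the contralateral joints at 1-day 1811 (10.5%), and at 2-weeks 1693 (9.78%). The order of these counts depends on the normalization. At 0-day 1379 genes were called with 1 RUVg factor and 686 with 2, of which 298 were higher and 388 lower, while with 2 factors there were 1892 calls at 1-day and 1442 at 2-weeks. Of the 3851 genes at 1 week, 822 were also called in the same direction at 0-day (21.3% of the 1 week calls and 34.4% of those at 0-day), 1238 at 1-day (32.1% and 68.4%), and 1042 at 2-weeks (27.1% and 61.5%). In the opposite direction there were 410 genes at 0-day, of which 301 were lower in STR/ort at 1 week, against 15 at 1-day and 35 at 2-weeks. The 2-weeks libraries are annotated as another batch, of a kind that is not stated, so that batch and time cannot be told apart for them. At 1 week only, 1786 genes were called.

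At all 4 times 508 genes kept their call and direction, 235 higher and 273 lower in STR/ort, which is 13.2% of the 1 week calls. They include all 20 of the genes with the smallest adjusted p given above. The same mm10 reference was used at every time, and the part of alignment in these lasting differences was not tested. Gdpd3, for example, was at 3.84 before injury and at 3.65, 3.90 and 3.67 at the later times in order, and 2610507I01Rik at -3.57, -3.24, -3.41 and -3.24. At 1 week their median absolute log2 fold change was 1.58, against 1.01 for all calls. Of 502 such genes with a position, 91 (18.1%) lay next to another of the 508 on the chromosome, and 5.59% of all 17212 placed genes had such a neighbour. For these 508 genes the MRL/MpJ mean was nearer to C57BL/6 in 57.1%, again without the share over all genes beside it.

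The change of the strain difference from 0-day to 1 week was tested itself, and 3561 genes (20.6%) changed, 1851 (10.7%) upward and 1710 (9.88%) downward in STR/ort relative to C57BL/6. With RUVg 2415 changed with 1 factor, 1522 upward and 893 downward, and 1519 upward and 896 downward with 2. The most significant were Ccdc3, a secreted protein, Fkbp5, Smo, Adamts15, Atp1b1 and Tgfbr3. Ccdc3 (chr2:5137311-5235967) moved from -0.43 to 1.72, a change of 2.09 (SE 0.18, adjusted p = 3.98e-08), and Fkbp5 from -0.28 to 1.32, a change of 1.54 (SE 0.13, adjusted p = 3.98e-08). Adamts15 was lower in STR/ort at 0-day (-0.86) and higher at 1 week (1.79), a change of 2.59 (SE 0.24, adjusted p = 6.29e-08). Atp1b1, a sodium pump subunit (chr1:164437099-164458355), went the other way, from 0.71 to -1.46 (change -2.22, SE 0.21, adjusted p = 6.29e-08). Its levels at 1 week were 204, 273, 211, 171 and 156 CPM in C57BL/6 and 66.1, 82.3, 59.6 and 85.3 CPM in STR/ort.

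Several lists had another sign at 0-day than at 1 week. The median strain difference of the fibrous list was -0.29 at 0-day, 0.59 at 1-day, 1.41 after 1 week and 0.47 after 2. The cartilage list went through -0.59, -0.01, 1.22 and -0.05, and 11 of its genes were called in the opposite direction at 0-day. In the test of the change the strain difference rose for 24 of 26 cartilage genes and 19 of 23 bone genes. It also rose for 32 of 35 fibrous and 13 of 18 ADAMTS genes, and fell for 1 cartilage and 1 ADAMTS gene. Both strains moved. Mean cartilage sums went from 9165 to 4056 CPM in C57BL/6 and from 6558 to 9697 CPM in STR/ort. Mean bone, fibrous and ADAMTS sums likewise fell in C57BL/6 and rose in STR/ort. These list counts were not repeated with RUVg. The slow muscle median went from 1.45 and 1.44 to -1.22 before it stood at 0.41. At 1-day the slow muscle sums nevertheless overlapped, with means of 2099 CPM in C57BL/6 and 2062 CPM in STR/ort. In the test of the change the strain difference of 14 of 15 slow and 18 of 18 fast genes fell. At 0-day STR/ort had the higher values, with fast muscle sums of 50680.2 to 81683 CPM in C57BL/6 and 112964 to 131528 CPM in STR/ort. The muscle and matrix lists thus moved in opposite directions between these times, and the part of one in the other was not tested.

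Immediate early genes had a median strain difference of 1.95 before injury, against 0.56 at 1 week. At 0-day 24 of 26 were higher in STR/ort, beside 1354 of all 17310 genes. In the test of the change the strain difference of 16 of these 26 fell and that of 0 rose. Egr2 went from 4.23 (SE 0.20) to 1.36 (SE 0.21), a change of -2.92 (SE 0.41, adjusted p = 4.33e-06). By contrast the strain difference of Mt2 rose from 1.08 (SE 0.18) to 2.78 (SE 0.22), a change of 1.63 (SE 0.32, adjusted p = 0.000247). T and NK cell genes were lower in STR/ort by the median at every time, at -0.46, -0.26, -0.80 and -0.70.

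**Figure D5:**
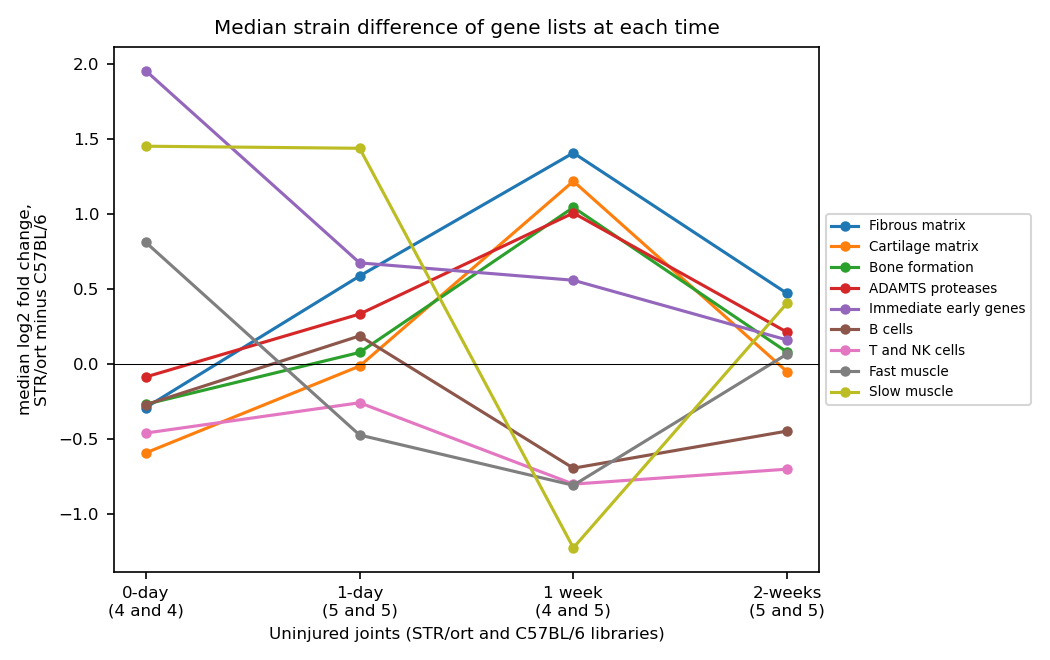
Median log2 fold change, STR/ort minus C57BL/6, of 9 gene lists in uninjured joints at 0-day and in contralateral joints at the 3 later times, with the number of STR/ort and C57BL/6 libraries in brackets; lines join medians from separate libraries. Fibrous, cartilage, bone and ADAMTS medians are highest at 1 week and the slow muscle median is lowest there, all with TMM scaling; with 2 RUVg factors the 1 week medians were -0.06 for cartilage and 0.07 for slow muscle.

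In the injured joints of the same time 4349 genes differed between the strains (25.1%), and 2856 of the contralateral calls were called there in the same direction (74.2% of the contralateral and 65.7% of the injured calls). Only 2 were opposite. The difference between the joints was tested directly, and 85 genes (0.491%) passed, 61 of them with a strain difference that was lower in the injured than in the contralateral joints and 24 with a higher one, while 1991 genes had an unadjusted p below 0.05. The count moved with the fit, to 42 when only the compared groups were fitted, to 151 with 1 RUVg factor and to 291 with the replicate number as a block, although the labels do not say that joints of 1 number came from 1 mouse. The split moved too, to 78 higher and 104 lower with 2 RUVg factors, 116 and 175 with the block, and 16 and 126 without replicate 3 of contralateral STR/ort. Prg4 had the contralateral levels given above, and in the injured joints 2581 ± 158 CPM in C57BL/6 and 8474 ± 1531 CPM in STR/ort (SD, n = 5 each). Its strain difference was 3.44 (SE 0.20) in the contralateral and 1.70 (SE 0.18) in the injured joints, a difference of -1.74 (SE 0.26, adjusted p = 0.000568).

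Fn1, Mmp3 and Adamts16 showed the same pattern, with differences between the joints of -1.59 (SE 0.25, adjusted p = 0.000919), -1.81 (SE 0.35, adjusted p = 0.00835) and -2.33 (SE 0.41, adjusted p = 0.00455). For Mmp3 the injured joints held 20.7 ± 3.49 CPM in C57BL/6 and 93.6 ± 18.1 CPM in STR/ort. Among the genes taken for the smallest adjusted p of this test was Sned1, a matrix glycoprotein (chr1:93235796-93301065), which measured 4.16, 1.71, 4.03, 3.16 and 2.26 CPM in C57BL/6 and 15.8, 16.2, 6.74 and 11.1 CPM in STR/ort in the contralateral joints. In the injured joints its strain difference was -0.34 (SE 0.19, adjusted p = 0.142), and the difference between the joints was -2.34 (SE 0.29, adjusted p = 7.35e-05). Others were the adhesion genes Nfasc, Ildr2 and Cadm3, at -1.57 (SE 0.23, adjusted p = 0.000568), -1.33 (SE 0.19, adjusted p = 0.000568) and -1.11 (SE 0.16, adjusted p = 0.000568). In injured joints Cadm3 was at 17.8 ± 0.774 CPM in C57BL/6 and 17.9 ± 1.82 CPM in STR/ort, a log2 fold change of -0.01 (SE 0.11, adjusted p = 0.975). The contralateral levels did not overlap, at 15.4, 16.2, 17, 15.7 and 13.3 CPM in C57BL/6 and 40.3, 40.3, 25.2 and 26.5 CPM in STR/ort.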

How the data were processed

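Poly(A) RNA of whole knee joints was sequenced. The authors aligned the reads to mm10 with TopHat2 (version 2.0.11) and counted them on genes with featureCounts, and the deposited values are whole-number counts without normalization. Of 17313 rows, 3 repeats were dropped, and 24 names had become dates. The study's filter (2 counts in 5 libraries) removed 0 genes. Whether counting used strand is not given in the sources used here.

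The quasi-likelihood test of edgeR (version 4.0.16, under R 4.3.3) was applied with TMM factors, in 1 fit of the 28 libraries of 1 week with a mean per group, and in like fits for 0-day, 1-day and 2-weeks. The change from 0-day was tested in 27 uninjured libraries of 1 batch. The SE is the log2 fold change divided by the square root of F. The test, run on simulated counts of the 1 week comparison over 17310 genes, recovered 62.5% of genes changed 1.5-fold, 97.5% of those changed 2-fold and 100% of those changed 4-fold, and called 5 unchanged genes. For the change from 0-day it recovered 35%, 90% and 100%, and called 5 unchanged genes. In both simulations the changed genes were drawn only from genes with higher mean counts. They were changed only in the contralateral STR/ort libraries of 1 week, and all groups otherwise shared the same means. Recovery at low counts, and false calls where many genes differ, were thus not measured.

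The 38 gene lists, the comparison and the rule for named genes were chosen with earlier results of these data known, and support nothing by themselves. The rule took, in each direction, the 10 genes of smallest adjusted p, up to 4 called members of each list with the largest change, and 6 genes for each of the 2 tests of a changed strain difference, and some genes that it took are not reported here. Acan, Col2a1, Col1a1 and Nnt were named after their values had been seen. Alternatives were RLE size factors, RUVg, housekeeping scaling, DESeq2 (version 1.42.0), the likelihood ratio test, filterByExpr, no filter, the compared groups only, a replicate block, each library left out, and, added after the data had been seen, scaling without muscle genes. Positions (GRCm38.p6) were matched for 17214 genes.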

Additional observations from a re-analysis of the deposited data

Results flagged for a closer look

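In 282 groups of values (the named genes and the summed gene lists in each strain at 1 week), a single library stood apart from its group in 21 by Dixon's criterion, where chance at 1 in 20 gives 14.1. Replicate 1 of STR/ort was highest for Ccl8 (10.7 CPM). Replicate 2 of STR/ort was lowest for Gdpd3 (47.4 CPM), lowest for Apobec3 (26.2 CPM), highest for Mt1 (171 CPM) and highest for the summed fast muscle genes (78417 CPM). Replicate 3 of STR/ort was lowest for Col2a1 (2998 CPM), highest for the summed osteoclast genes (2944 CPM), highest for the summed mast cell genes (145 CPM) and lowest for the summed Schwann cell and nerve genes (213 CPM). Replicate 4 of STR/ort was highest for Rag1 (51.8 CPM), highest for Cd3g (3.26 CPM), highest for Fosb (9.68 CPM) and highest for the summed B cell genes (487 CPM). Replicate 1 of C57BL/6 was highest for Egr2 (2.66 CPM). Replicate 2 of C57BL/6 was highest for Tm4sf20 (0.263 CPM) and highest for Marco (5.51 CPM). Replicate 3 of C57BL/6 was lowest for Ccl5 (3.4 CPM). Replicate 4 of C57BL/6 was highest for Hba-a2 (3285 CPM). Replicate 5 of C57BL/6 was highest for C130026I21Rik (3.15 CPM), highest for Dkk1 (12.7 CPM) and highest for the summed complement genes (2119 CPM).

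The strain difference changed between 0-day and contralateral joints at 1 week for 3561 genes by the test of the difference itself, and for 63 of the genes named here, most of which were taken for their difference in the 1 week libraries that enter this test. On the log2 scale, STR/ort rose relative to C57BL/6 by 3.47 for Mmp3, 3.05 for Adamts16, 2.59 for Adamts15, 2.53 for Comp, 2.49 for Sned1, 2.42 for Ccl8, 2.38 for Sod3, 2.36 for Fn1 and 2.32 for Vsig4. Smaller rises were 2.28 for Prg4, 2.18 for Dkk1, 2.11 for Nfasc, 2.09 for Col3a1, 2.09 for Ccdc3, 2.07 for Lyve1, 2.07 for Duox1, 2.01 for Sox5 and 2.01 for Prelp. Further rises were 2.00 for Ccl21a, 1.99 for C4b, 1.97 for Tnfrsf11b, 1.93 for Il11, 1.92 for Npas2, 1.91 for Acan, 1.86 for Serpina3n, 1.83 for Col2a1 and 1.74 for Rspo2. Rises below these were 1.74 for Mamdc2, 1.70 for Wif1, 1.67 for Timp1, 1.65 for Col1a1, 1.63 for Mt2, 1.59 for Sost, 1.54 for Fkbp5, 1.51 for Timp2 and 1.51 for Mmp19. Next in size were 1.47 for Ibsp, 1.45 for Smo, 1.41 for Ltbp3, 1.40 for Tgfbr3, 1.39 for Ctgf, 1.38 for Ildr2, 1.37 for Adamts4, 1.26 for Sox9 and 1.18 for Cadm3. The smallest rises were 1.17 for Cdkn1a, 1.10 for Mepe, 1.10 for Mt1, 1.05 for Serping1 and 0.70 for Hspa5. The changes in the other direction were -2.92 for Egr2, -2.89 for Myh2, -2.74 for Fbxo32, -2.66 for Ppargc1a, -2.54 for Mybpc1, -2.30 for Myh1, -2.24 for Myf6, -2.22 for Atp1b1 and -1.71 for Cyr61. Smaller falls were -1.68 for Dbp, -1.55 for Myl1, -1.42 for Rag1 and -0.91 for Nnt.

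The strain difference in injured joints differed from that in contralateral joints at 1 week for 85 genes, and for 15 of the genes named here. All 15 were negative (a lower strain difference in the injured joints), a direction that the choice of genes favours, since most were taken for a large strain difference in the same contralateral libraries. Among all 85 genes 24 were positive. On the log2 scale they were -2.34 for Sned1, -2.33 for Adamts16, -1.81 for Mmp3, -1.74 for Prg4, -1.59 for Fn1, -1.57 for Nfasc, -1.33 for Ildr2 and -1.11 for Cadm3. The others were -1.06 for Lyve1, -1.05 for Comp, -1.02 for Sox5, -1.01 for Tnfrsf11b, -0.97 for C4b, -0.96 for Prelp and -0.91 for Ccdc3. The injured and contralateral joints at 1 week share no library, but the labels do not state which joints came from the same mouse.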

How the results depend on the processing

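The 3851 calls at 1 week were between 3477 and 4093 when each library was left out in turn, 3861 with RLE size factors, 3776 with DESeq2, 4002 with the likelihood ratio test, 3625 with the filterByExpr filter, 3708 when only the compared groups were fitted, 4173 with housekeeping scaling, and 3123 and 2996 with 1 and 2 RUVg factors. Leaving out each library gave 757 to 836 calls shared with 0-day, 1139 to 1267 with 1-day, 982 to 1089 with 2-weeks, and 3255 to 3770 changed strain differences since 0-day. With 2 RUVg factors 412 calls were shared with 0-day.

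The count of 85 genes that differed between injured and contralateral joints was the least stable. It was 151 and 182 with 1 and 2 RUVg factors, 174 with DESeq2, 181 with the likelihood ratio test and 42 when only the compared groups were fitted. With each library left out it was 48 to 142, with 48 without replicate 1 of injured C57BL/6, 130 without replicate 5 of contralateral C57BL/6 and 142 without replicate 3 of contralateral STR/ort. It was 51 without replicate 2 and 56 without replicate 1 of contralateral C57BL/6, 53 without replicate 2 or 3 of injured C57BL/6, and 53 and 56 without replicates 1 and 2 of injured STR/ort. The cause was not tested.

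Among named genes the log2 fold change reversed for Myl1 (0.14) and Myf6 (0.047) with 2 RUVg factors, and for Col2a1 with 1 (-0.10) and 2 (-0.067). Leaving out 1 library moved the fitted value of BC049730 to 8.08 (C57BL/6 replicate 3), Tm4sf20 to 9.99 and Marco to -6.47 (C57BL/6 replicate 2).

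The strains share replicate numbers, and same-numbered libraries deviated with correlations of -0.03, 0.07, -0.15 and -0.08. Libraries of unlike number were not correlated for comparison. A replicate block gave 4029 calls at 1 week, of which 805 were shared with 0-day, 1228 with 1-day and 1052 with 2-weeks, 3626 changed strain differences since 0-day, and 291 differences between the joints. Between the joints of 1 number the correlations were 0.10 to 0.23 in STR/ort, over 0.1 in all 4 pairs, and -0.02 to 0.27 in C57BL/6, over 0.1 in 2 of 5. Correlations between joints of unlike number were not computed, so these values cannot show whether the numbers pair joints, and the labels state no pairs. List counts of 1 or 2 members moved by 1 with single libraries left out for complement, erythroid, T and NK cell, MHC, neutrophil, glucocorticoid, cytokine, skin, synovial lining and sex chromosome genes. Low counts limit genes below about 1 CPM, for which only large differences could pass.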
